A study of Mus musculus with 8 samples.

Results

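The genes described here are the cytosolic ribosomal protein genes of the mouse, the genes whose products build the small and the large subunit of the ribosome. They were taken by symbol: every gene named as a protein of the large subunit (Rpl) or of the small subunit (Rps), the stalk genes Rplp0, Rplp1 and Rplp2, and Rpsa, with at least 100 UMIs over both libraries. A UMI, or unique molecular identifier, marks a captured RNA molecule, so a UMI count is a count of molecules. Of 31053 genes in the count tables, 83 had such a symbol and 80 reached the limit, 32 of the small and 48 of the large subunit. Just outside the limit were Rpl39l with 13 UMIs, Rpl3l with 8 and Rpl10l with 0, which counting error allows to be up to 3, and these are paralogs known mainly from testis or muscle. Just inside it were Rpl7l1 with 4082 UMIs, Rpl13a with 11096, Rps27l with 11396 and Rpl27 with 11893.

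Ribosomal proteins are made in near-equal amounts, assembled on ribosomal RNA in the nucleolus and exported as subunits, and their mRNAs are among the most abundant in growing cells. Most of these mRNAs begin at a cytosine within a run of pyrimidines, the 5′ terminal oligopyrimidine tract, through which mTOR signalling adjusts their translation rather than their amount. In the adult dentate gyrus, neural stem cells that leave quiescence are known to raise ribosome production and protein synthesis.

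Start sites of the members were read from RefSeq promoter windows on GRCm38.p6 to show the tract in the genes that the results below turn on. Windows were found for 60 of the 80 members. Each sequence is 30 bases of the gene's own strand around the longest run of C or T near the annotated start, with that run in capitals. Not every stretch contains the start itself. Printed are 4 of the 6 members with the most UMIs (Rps24, Rpl13, Rps9 and Rpl23). The paralog pairs Rps27 and Rps27l and Rpl22 and Rpl22l1 and the paralog Rpl7l1 follow. Last are Rpl38, Rpl31, Rpsa and Rpl35, taken from the members named below for differences between classes or conditions.
Rps24, chr14:24490711-24490740, + strand: agcggTCCTCTTTTCCTCCTCTCCagctcc
Rpl13, chr8:123102324-123102353, + strand: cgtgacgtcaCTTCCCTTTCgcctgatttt
Rps9, chr7:3704025-3704054, + strand: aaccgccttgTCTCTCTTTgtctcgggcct
Rpl23, chr11:97782404-97782433, − strand: gagtgggcggggCCTCCCgttcatatccca
Rps27, chr3:90213631-90213660, − strand: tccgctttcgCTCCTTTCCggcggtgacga
Rps27l, chr9:66946054-66946083, + strand: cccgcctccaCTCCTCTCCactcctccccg
Rpl22, chr4:152324414-152324443, + strand: atatcagcgctgCTTCTggaatgttccagc
Rpl22l1, chr3:28805499-28805528, + strand: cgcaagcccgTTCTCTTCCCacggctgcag
Rpl7l1, chr17:46782664-46782693, − strand: gcgggcctctctaCCCCgcccggtgaggct
Rpl38, chr11:114668568-114668597, + strand: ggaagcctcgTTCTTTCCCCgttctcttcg
Rpl31, chr1:39367825-39367854, + strand: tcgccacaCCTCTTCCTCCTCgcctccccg
Rpsa, chr9:120127775-120127804, + strand: ccggccgcccgTCCTTTCgcgctacccggg
Rpl35, chr2:39005115-39005144, − strand: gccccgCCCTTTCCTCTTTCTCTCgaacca

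A run of 8 or more C or T was searched on the gene's strand alone, and counted in full where at least 1 of its bases lay between 25 bases before and 50 bases after the annotated start. It was present in 51 of 71 member windows (71.8%) and in 9764 of all 32851 windows (29.7%). By gene, 47 of the 60 members (78.3%) had a run in at least 1 window, against 33.1% of the 27025 genes with windows. Of the genes printed above, Rps24 had the longest run, at 19 bases, and Rpl35 had 18, whereas Rpsa had 7, Rpl23 had 6, Rpl22 had 5 and Rpl7l1 had 4. Rps28 and Rpl27, named below for low TBI over Control ratios, are not printed, and their longest runs were 5 bases each. In the Rpl7l1 stretch a longer run, in lower case, ends just before the searched bases and was not counted. Rps27l holds a second run of the same length as its marked run, also in lower case. Counted from the annotated start, the printed runs began at base -37 for Rps24, which ended before the start, at -7 for Rpl35 and -2 for Rps27 and Rpl38, which spanned it, and at 19 for Rpl23 and 21 for Rpsa, which lay after it. A run is a match of letters near an annotated start, and the start used in these cells was not measured.

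Mice of the Control group had a sham craniotomy and those of the TBI group a controlled cortical impact on one side of the brain, all of the Nestin-GFP strain, 8 weeks of age and, by the study's methods, male. At 15 days after surgery dentate gyri were dissected, dissociated, pooled by condition and sorted for live GFP+ cells, and each pool became 1 droplet library (10x 3′, v3). GFP in this strain is driven by control elements of the nestin gene, active in neural stem and progenitor cells and also in vessel cells, so the sort sets which cells could be seen. The labels list 4 Control and 4 TBI animals, the study's methods give a different number of pooled animals, and no cell can be assigned to an animal. Each condition was therefore 1 sample, no difference between Control and TBI has a replicate check, and no test or p-value is given. Intervals are 95% intervals for counting error only.

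The Control table held 24723113 UMIs over 3086 barcodes and that of TBI 31543330 UMIs over 5081. After filtering, 3049 and 5036 cells remained, with medians of 6928 and 5663 UMIs per cell, so TBI cells held fewer UMIs. Reads per cell were not analysed here. Doublet calling marked 37 and 108 of them, and 3 barcodes occurred in both tables. The cells fell into 41 clusters, 37 of which were named from marker genes into 14 classes, each name meaning cells like that type by those markers. Another 292 cells in 4 clusters stayed unnamed. All member genes and Malat1 were left out of clustering, so that the classes do not rest on the genes compared. Summed class markers were highest in their own class in both libraries except for the immature granule neuron-like cells, whose Control sum was 0.84 of that in Reln-expressing neurons. Oligodendrocyte precursors, with 28 Control cells, were not compared between conditions.

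The first question was how much of a cell's RNA these genes take up along the lineage from stem cell to neuron or glial cell. The share of all UMIs that came from the 80 members ran over a 6.03-fold range of classes in Control and 5.23-fold in TBI, highest in radial glia-like (RG-like) progenitors and lowest in astrocytes. RG-like progenitors, led by Neurog2 and Ccnd2, gave 14.7% in Control (105 cells) and 13.9% in TBI (153 cells). They were 1 cluster, whose leading genes also held Ung, Mcm6 and Cdca7, and whose marker score was 1.49 against 1.40 for early neuroblasts. In a coarser clustering, at resolution 1.5, a cluster also led by Neurog2 and Ccnd2 stayed unnamed and no RG-like class was formed. Astrocytes gave 2.44% (95% interval 2.42–2.46, 683 cells) and 2.66% (2.64–2.69, 677 cells). Over all kept cells the share was 8.31% and 8.17%.

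Within the granule neuron lineage the share was high from dividing cells to late neuroblasts and low in the most differentiated class. Cycling progenitors gave 12.2% in Control and 12.1% in TBI. Early neuroblasts, marked by Eomes and Neurod4, gave 13.6% and 12.9%, and late neuroblasts, marked by Calb2 and Stmn2, gave 11.9% and 12.0%. Immature granule neuron-like cells gave 3.43% (3.33–3.53) in 60 Control cells and 5.27% (5.17–5.37) in 118 TBI cells, at median depths of 1876.5 and 1592.5 UMIs and with 26.4% and 22.0% mitochondrial UMIs. That class was therefore shallower and richer in mitochondrial RNA than cycling progenitors, which had 6.33% mitochondrial UMIs in Control, and the part of either in its low share was not tested.

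The remaining classes spread over nearly the same range. Reln-expressing neurons, led also by Lhx1 and Ndnf and not part of the granule neuron lineage, gave 9.65% and 9.51%. Oligodendrocytes gave 3.88% and 3.79%, pericytes 4.45% and 4.198%, and stem-like astroglia, marked by Hopx and Fabp7, 4.99% and 6.26%. Smooth muscle and fibroblast-like cells gave 7.63% and 7.15%, and endothelial cells 8.43% and 8.41%. Microglia, which are not of neural origin, gave 12.1% in Control (38 cells) and 13.7% in TBI (88 cells), as much as the progenitors. Astrocytes and stem-like astroglia thus lay on opposite sides of the pericytes although both carry astroglial markers.

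**Figure D1:**
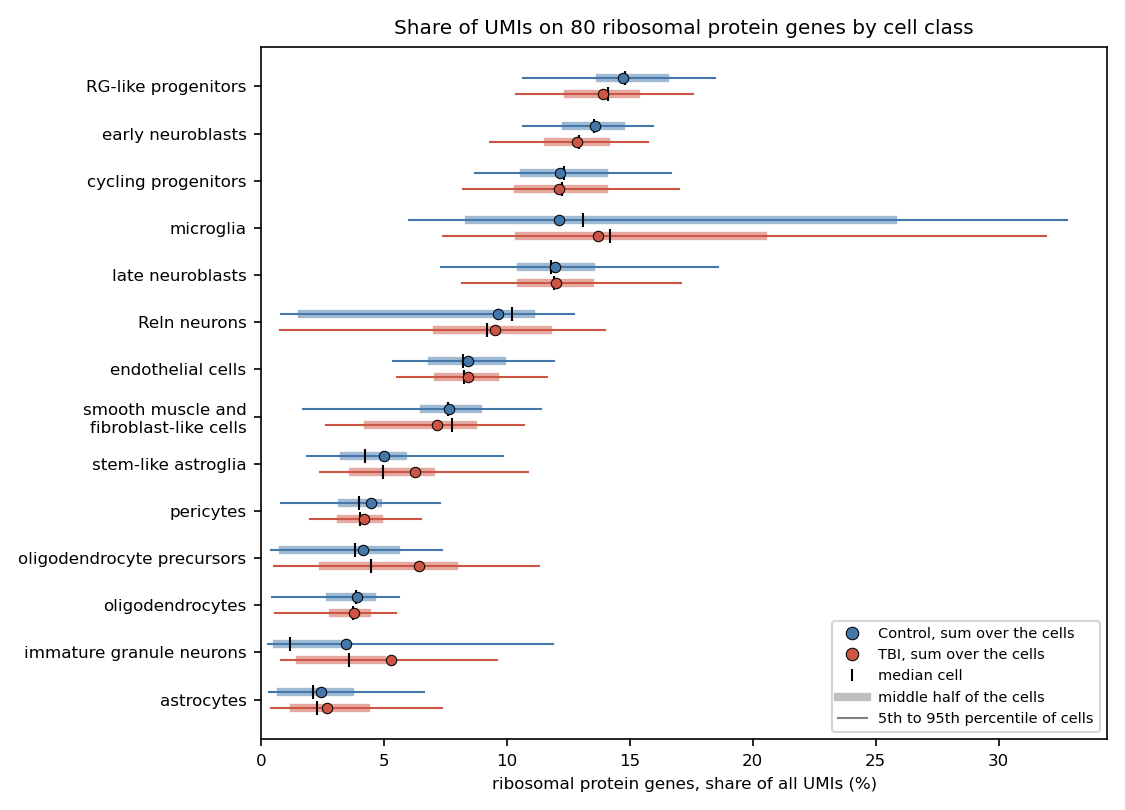
Share of all UMIs from the 80 ribosomal protein genes (percent, x axis) in each of 14 cell classes (y axis, in order of the Control share), Control in blue and TBI in red. Points are sums over the cells of a class, ticks the median cell, thick bars the middle 50% of cells and thin lines the 5th to 95th percentile, and astrocytes sit lowest, at 2.44% and 2.66%.

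The low astrocyte share was not uniform: clusters of astrocytes ran from 0.62% to 6.16%. The cluster led by Atp13a4 and Nwd1 had 0.62% member UMIs and 20.8% of Malat1, a nuclear noncoding RNA. The cluster led by Chchd10, Mt3 and Aldoc had 6.16% member UMIs and 0.10% of Malat1, at a median of 1624 UMIs per cell. Between them stood clusters of 1.45% (Malat1 17.0%), 2.43% (12.8%) and 3.77% (0.49%). Astrocytes with at least 1% Malat1 gave 1.60% in Control and 1.74% in TBI, and those below 1% gave 5.06% and 5.07%. Malat1-poor astrocytes thus still lay under RG-like progenitors, which gave 16.2% and 15.5% below the same Malat1 limit.

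Other classes were split the same way. Late neuroblasts gave 11.7% and 11.8% at or above 1% Malat1 and 18.5% and 19.0% below it, and microglia gave 9.84% and 12.6% against 27.3% and 27.8%. Across cells of a class and library, the Spearman correlation between the member share, taken over UMIs other than Malat1 and mitochondrial ones, and the Malat1 share was negative in all 28 sets, from -0.21 to -0.88. Cells of a set share 1 library, and the 2 shares come from the same counts. With a cell's total UMIs the correlation ran from -0.62 to 0.64, with no common sign. The part of Malat1-rich cells in the class shares beyond these values was not tested.

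**Figure D2:**
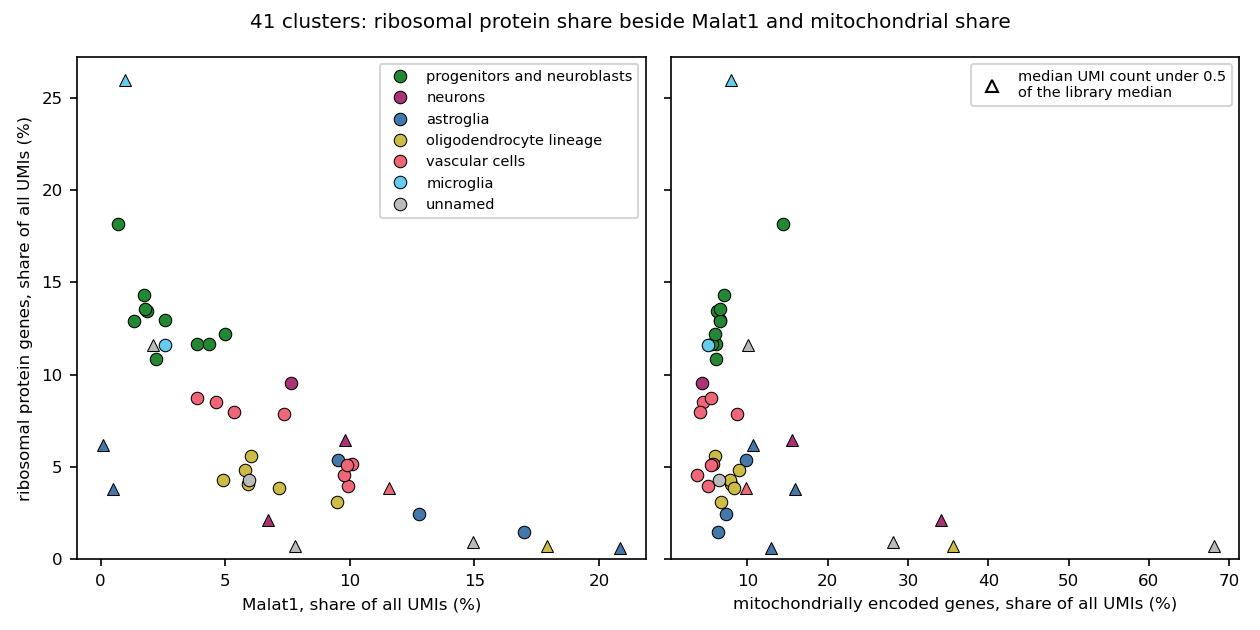
Member share of UMIs (percent, y axis) of the 41 clusters against the Malat1 share (percent, left) and the share of mitochondrially encoded genes (percent, right), coloured by cell group, with triangles for clusters whose median UMI count was under 0.5 of the library median. Astrocyte clusters run from 0.62% of member UMIs at 20.8% Malat1 to 6.16% at 0.10%.

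Single clusters stood apart in other classes as well. Among microglia, a cluster of shallow cells, with a median of 1529 UMIs, gave 26.1% in Control and 25.9% in TBI, against 9.48% and 12.5% in the larger cluster led by C1qa and Cx3cr1. An oligodendrocyte cluster with 35.5% mitochondrial UMIs gave 0.71%, whereas the other oligodendrocyte clusters gave 3.09% to 4.83%. The cycling progenitors gave 12.9% in the cluster led by Cenpa and Cdc20, 10.9% in that led by histone genes and Top2a, and 13.5% in that led by Ung and Uhrf1. The cluster led by histone genes and Top2a was the lowest of them in both libraries, at 11.0% in Control and 10.6% in TBI.

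Most members shared their lowest class, but they did not share a single highest class. For 43 of the 80 the highest class mean was in RG-like progenitors, for 23 in microglia, for 5 in early and for 5 in late neuroblasts, and for 72 the lowest was in astrocytes. The fold from the lowest to the highest class, in CPM, a gene's UMIs in a class scaled to a fixed total of UMIs, had a median of 6.25 and ran from 2.69 for Rpl7l1 to 11.0 for Rplp0. Against astrocytes, cycling progenitors were more than 2-fold higher for 80 of 80 members in Control, where 22% of all genes tested were. In TBI this held for 78 of 78, against 22.2%. Here and below, all genes tested include the members. The median log2 difference was 2.33 in Control and 2.21 in TBI for the members and 0.16 and 0.09 for all genes tested, and the members' 10th to 90th percentile in Control was 1.80 to 2.72.

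Rps24, a small-subunit gene mutated in Diamond-Blackfan anaemia, had the most UMIs of all members, 114838. Its CPM was 3840.5 in Control and 3626 in TBI in RG-like progenitors and 548 and 598 in astrocytes. Rpl13, of the large subunit, with 111035 UMIs, had 2981 and 3900 CPM in microglia and 604 and 709 in astrocytes. For these members the gap between the classes named was several times the gap between the libraries.

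Rps27a, whose product is made as a fusion with ubiquitin, had 94411 UMIs, with CPM of 2688 and 2722 in RG-like progenitors and 430 and 488 in astrocytes. Rps9, with 87892 UMIs, was highest in early neuroblasts over both libraries together, at 2889 and 2936 CPM. Microglia had 2209 and 2976 CPM of Rps9, so in TBI they were above early neuroblasts. Rpl23, with 86342 UMIs, a regulator of p53 through Mdm2, was at 2723 and 2697 in RG-like progenitors and 430 and 453 in astrocytes. Rps24, Rpl13, Rps27a, Rps9 and Rpl23 all had their lowest class mean in astrocytes.

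Because the summed share sets the scale, each member was next taken as a percentage of the member UMIs of its class. On this scale a member's highest class was a median of 1.70 times its lowest, with a range of 1.31 to 7.09, so the make-up of the member RNA varied less than its amount. The genes with the widest range are described by their role. They were ranked by the range itself, so the ranges are a description.

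The stalk proteins Rplp0, Rplp1 and Rplp2 form the arm of the large subunit that recruits elongation factors. Rplp0 made up 1.80% of member UMIs in Control and 1.87% in TBI in cycling progenitors and 0.91% and 0.98% in astrocytes, and its 11.0-fold CPM range was the widest of the members. Rplp1 made up 3.47% and 3.45% in microglia but 1.249% and 1.24% in late neuroblasts. Its CPM in microglia was 4201 and 4734, against 2532 and 2399 in RG-like progenitors. The 3 partners of the stalk therefore had different orders of classes, Rplp0 highest in RG-like progenitors and Rplp1 in microglia in both libraries. Rplp2 had 1529.5 CPM in Control and 1258 in TBI in RG-like progenitors and 1431 and 1422 in microglia, so its highest class differed between the libraries.

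Among core members of the large subunit, Rpl38, known for its part in the translation of Hox mRNAs, was highest in endothelial cells on this scale. It made up 1.96% and 1.73% of member UMIs in endothelial cells and 0.57% and 0.45% in microglia. Its CPM in endothelial cells, 1651 and 1454, was above every other class, the next being late neuroblasts at 1214 and 1020.03. Pericytes, also vessel cells, had 349 and 289.

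Rpl3, next to the peptidyl transferase centre, made up 2.16% and 2.58% of member UMIs in Reln-expressing neurons and 1.00% and 1.08% in endothelial cells, and Rpl31, a protein near the exit tunnel, 0.86% and 0.78% in astrocytes. Rpl13 stood out in oligodendrocyte precursors, where it made up 4.02% and 5.86% of member UMIs, with a CPM of 1669 in 28 Control cells and 3766 in 56 TBI cells. Its share in the other classes ran from 2.06% to 2.99%.

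On the small subunit, Rpsa, also known as a laminin receptor, made up 2.06% and 2.19% in oligodendrocytes, 2.00% and 2.20% in cycling progenitors and 0.94% and 0.93% in endothelial cells. Rps29, a short zinc-binding protein, made up 3.47% and 2.86% in microglia, where its CPM was 4196 and 3915. Across classes the ratio of small-subunit to large-subunit UMIs moved only from 0.712 in oligodendrocyte precursors of Control to 0.846 in microglia of TBI. It lay between 0.816 and 0.842 in progenitors and neuroblasts and was 0.738 and 0.729 in astrocytes.

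**Figure D3:**
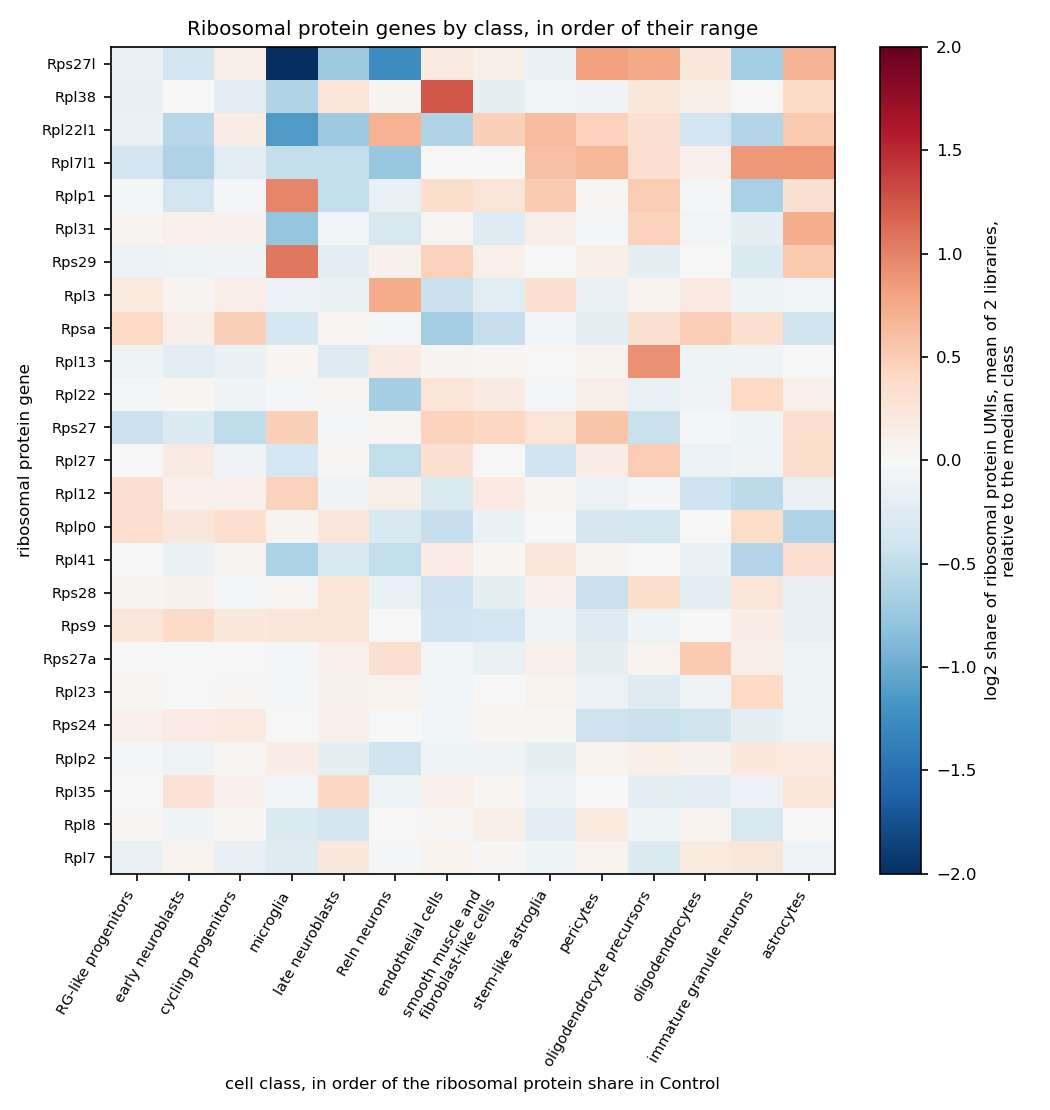
Heat map of members described in the text (y axis, from the widest range over classes to the narrowest) in 14 cell classes (x axis, in order of the Control share), coloured by log2 share of member UMIs, averaged over the 2 libraries and relative to the gene's median class. Rpl38 is highest in endothelial cells, Rplp1 and Rps29 are highest in microglia, and Rps27l is lowest there.

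A few members have paralogs in the set, and UMIs for a paralog were set against those of its partner in the same cells. Capture and mapping can differ between 2 genes, so each ratio is compared between classes and not read as a ratio of proteins. Rps27l, a p53-inducible paralog of Rps27, had 0.428 UMIs per UMI of Rps27 in cycling progenitors of Control (0.401–0.457) and 0.487 in TBI (0.452–0.524). The ratio was 0.352 and 0.352 in RG-like progenitors, 0.241 and 0.304 in early neuroblasts and 0.160 and 0.212 in late neuroblasts. It was therefore lower in late neuroblasts than in early ones and in progenitors in both libraries, and the intervals of cycling progenitors and late neuroblasts do not overlap in either library.

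Outside this lineage the Rps27l ratio was 0.109 and 0.130 in Reln-expressing neurons, highest in oligodendrocyte precursors, at 0.742 (0.502–1.09) and 0.620 (0.480–0.798), and lowest in microglia, at 0.048 (0.028–0.079) and 0.057 (0.040–0.078). In CPM, Rps27l was at 365 and 352 in cycling progenitors and 88 and 85 in microglia, whereas Rps27 was at 853 and 722 in the former and 1807 and 1507 in the latter. Both genes thus contributed to the range, in opposite directions. Of member UMIs, Rps27l made up 0.45% and 0.50% in pericytes and 0.07% and 0.06% in microglia, the widest range of all members.

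Rpl22l1 is a paralog of Rpl22, which is known to restrain its expression. Its ratio to Rpl22 had the same order, from 0.759 (0.718–0.803) and 0.747 (0.703–0.795) in cycling progenitors through 0.654 and 0.544 in RG-like progenitors to 0.400 and 0.373 in late neuroblasts. Reln-expressing neurons had 1.34 (1.07–1.68) in Control and 2.06 (1.71–2.48) in TBI, and no other class was above 1 in both libraries. There Rpl22l1 was at 598 and 799.7 CPM and Rpl22 at 446 and 389. The ratio was also high in stem-like astroglia (0.989 and 1.08) and astrocytes (0.882 and 0.858), against 0.317 and 0.294 in microglia.

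Rpl7l1, a paralog of Rpl7 that takes part in early assembly of the large subunit, was the least counted member. Its ratio to Rpl7 was 0.150 and 0.163 in astrocytes, 0.134 and 0.127 in stem-like astroglia, 0.088 and 0.071 in cycling progenitors and 0.054 and 0.048 in late neuroblasts. Rpl7l1 had the narrowest CPM range of the members, from 124 and 99 in RG-like progenitors to 42 and 41 in oligodendrocytes, so its ratio was high where Rpl7 was low. Near-identical copies also limit these counts. The copies Rps27rt with 2578 UMIs, Rpl27-ps3 with 1566 and Rpl10-ps3 with 1472 were counted as genes of their own. How reads that fit both a copy and Rps27, Rpl27 or Rpl10 were counted was not examined.

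**Figure D4:**
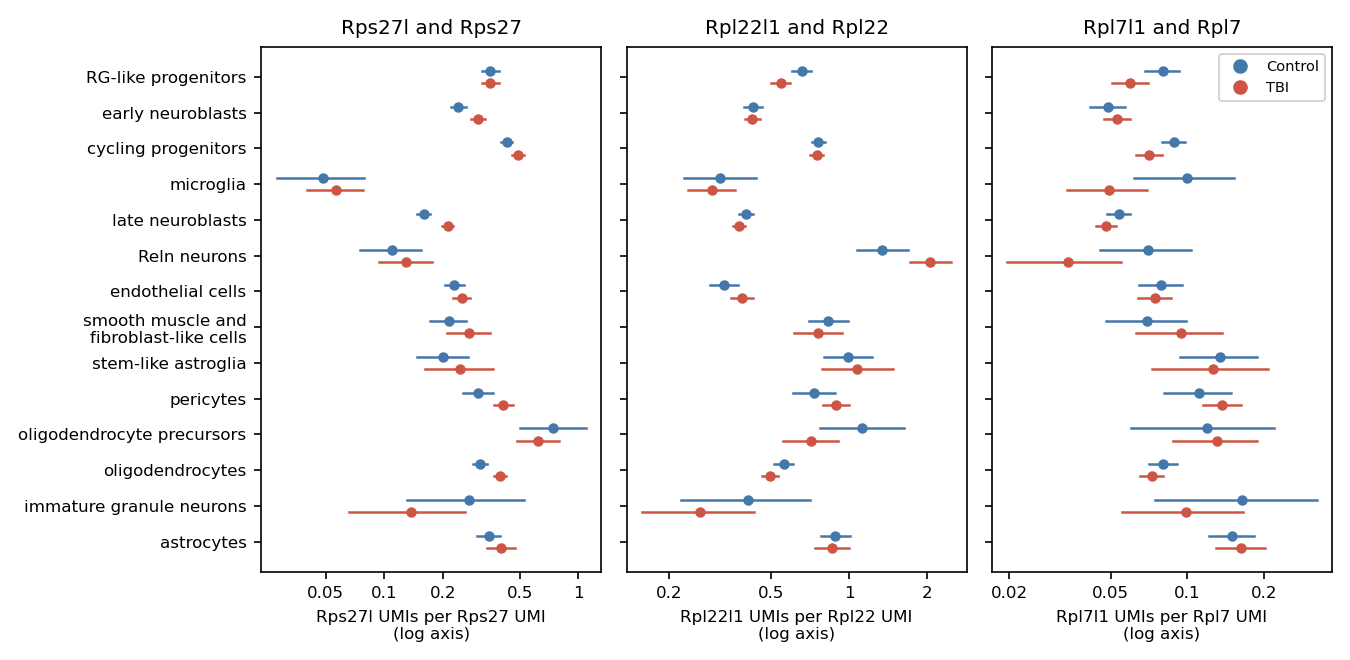
UMIs of Rps27l, Rpl22l1 and Rpl7l1 per UMI of Rps27, Rpl22 and Rpl7 (x axis, log scale) in each class (y axis), Control in blue and TBI in red, with 95% counting intervals. The Rps27l ratio is lower in late neuroblasts than in cycling progenitors, and the Rpl22l1 ratio is above 1 in Reln-expressing neurons in both libraries.

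Other genes of the translation machinery were taken as lists and compared between cycling progenitors and astrocytes, as the members were. Rack1, a scaffold on the small subunit whose symbol the rule does not take, had 1075 and 1134 CPM in cycling progenitors and 156 and 195 in astrocytes. Elongation factors and other genes known for a 5′ pyrimidine tract made up 0.32% in astrocytes and 1.96% in early neuroblasts. More than 2-fold higher in cycling progenitors than astrocytes were 15 of 17 tested in Control and 14 of 16 in TBI. Eef1a1, which brings aminoacyl-tRNA to the ribosome, had 3981 and 4028 CPM against 586 and 619.9. Tpt1, a growth-related tract-bearing gene, had 4659.6 and 5133 against 818 and 968.

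The ribosome biogenesis list, nucleolar and assembly factors, made up 0.088% of UMIs in astrocytes and 0.472% in RG-like progenitors of Control. In Control it made up 0.303% in early neuroblasts, 0.268% in late neuroblasts and 0.257% in microglia. From RG-like progenitors to late neuroblasts the list thus fell further than the members. In immature granule neuron-like cells it made up 0.167% in Control and 0.247% in TBI. There the members, at 3.43% and 5.27%, had fallen further than the list in both libraries. In microglia the list did not reach the level of progenitors. It was more than 2-fold higher in cycling progenitors than astrocytes for 6 of 7 tested in Control and 4 of 4 in TBI, among 24 listed genes. Npm1, the nucleolar chaperone nucleophosmin, had 1105 and 1248 CPM against 148 and 165. Ncl, nucleolin, had 684 and 855 against 164 and 175. Mitochondrial ribosomal proteins, which build a separate ribosome, passed the same fold for 7 of 48 tested in Control and 4 of 35 in TBI, with median log2 differences of 0.60 and 0.55. Past that fold the mitochondrial list lay below the background of 22% and 22.2%, whereas every tested member passed. Its medians were above those of all genes tested, 0.16 and 0.09.

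The share was then compared between neuroblasts and the more differentiated granule neuron-like class. Of members with enough UMIs in both classes, 6 of 6 in Control were more than 2-fold lower in immature granule neuron-like cells than in early neuroblasts, where 45.5% of the 44 genes tested were. In TBI 46 of 57 were, against 40.5% of 173 genes. Those 173 genes include the 57 members, and the 70 genes lower include the 46. The members' median log2 difference was -1.71 and -1.33, and that of all genes tested was -0.75 and -0.61. The TBI count was 0 when cells with 10% or more mitochondrial UMIs were left out and 3 when cells under 2000 UMIs were.

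The study's own question was what TBI changed. In most classes the summed share differed little between the libraries: the TBI over Control ratio lay between 0.938 and 1.13 in 11 of 13 classes compared. Its interval was above 1 in 5 classes, below 1 in 6 and held 1 in 2. The largest ratios were 1.54 (1.482–1.59) in immature granule neuron-like cells, 1.26 (1.23–1.28) in stem-like astroglia and 1.13 (1.12–1.15) in microglia. The lowest were 0.938 in smooth muscle and fibroblast-like cells, 0.943 in pericytes, 0.946 in RG-like progenitors and 0.947 in early neuroblasts. The median cell went the other way in smooth muscle and fibroblast-like cells (7.60% in Control, 7.75% in TBI, 63 and 59 cells) and in pericytes (3.99% and 4.01%). It was lower in TBI in RG-like progenitors (14.8% and 14.1%) and early neuroblasts (13.5% and 12.9%). In oligodendrocytes the summed share was lower in TBI in every cluster but that with 35.5% mitochondrial UMIs (0.63% and 0.78%). The largest fall was from 4.11% to 3.65% and the smallest from 3.12% to 3.07%. The oligodendrocyte cluster of highest share held 35 Control and 214 TBI cells, and its median cell was higher in TBI (3.57% and 4.31%). By cluster, early neuroblasts gave 13.3% in Control and 12.7% in TBI (112 and 196 cells), and 14.1% and 13.1% (57 and 133 cells). In the summed UMIs of a class, less RNA of these genes per cell and a change in which cells make up the class cannot be told apart.

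The higher ratios sat in small or heterogeneous classes. The granule neuron-like class had 2 clusters, in which the share was 1.30% in Control and 3.12% in TBI (38 and 60 cells) and 6.69% and 6.34% (22 and 58 cells). The share was thus higher in TBI in the cluster with 34.1% mitochondrial UMIs and lower in the other, which had 15.5%. The microglia ratio was 0.979 when each cell was given equal weight, and the astrocyte ratio of 1.09 was 0.969 without clusters of low UMI count. By cluster, microglia gave 9.48% in Control and 12.5% in TBI in the larger one (21 and 62 cells). The shallow one gave 26.1% and 25.9% (17 and 26 cells). Stem-like astroglia, 60 and 34 cells in 1 cluster, had cell medians of 4.23% and 4.97%.

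Single members with 100 or more UMIs in both sums were next compared, called lower where TBI over Control was under 0.8 and higher where Control over TBI was. Cycling progenitors had 0 of 80 members higher in TBI, against 4.98% of all genes, and 3 lower, against 4.48%. RG-like progenitors had 0 higher (background 4.61%) and 6 of 80 lower (4.58%), early neuroblasts 0 higher (3.37%) and 6 of 80 lower (5.18%), and late neuroblasts 0 higher (2.09%) and 1 of 80 lower (5.38%). The members higher in TBI were thus below the background in these classes, as were those lower in late neuroblasts. The other counts of lower members were near the background, and a share near it is no result about the members. The part of a gene's UMI count in passing the fold was not tested.

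Stem-like astroglia had 38 of 65 members higher (background 23.6%) and 0 lower (12.9%), and microglia 12 of 74 higher (9.42%) and 0 lower (11.6%). The background includes the members. In stem-like astroglia the 53 genes higher of 225 tested hold those 38, and in microglia the 26 of 276 hold those 12. Immature granule neuron-like cells had 6 of 6 higher, against 61.4% of the 44 genes tested, and 0 lower (11.4%). Astrocytes had 3 of 78 higher (6.39%) and 1 lower (3.89%). Reln-expressing neurons had 1 of 76 higher (15.1%) and 9 lower (14.8%). The members higher in TBI were thus above the background in stem-like astroglia, microglia and, with 6 members tested, the granule neuron-like class. They were below it in Reln-expressing neurons. In astrocytes few members passed the fold in either direction, although their median log2 difference was 0.14, where that of all genes was 0.02.

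Oligodendrocytes had 0 of 80 members higher (1.88%) and 5 lower (3.81%), endothelial cells 0 of 80 higher (3.14%) and 2 lower (4.09%), pericytes 0 of 78 higher (6.72%) and 7 lower (6.92%), and smooth muscle and fibroblast-like cells 0 of 75 higher (19.1%) and 6 lower (21.2%). Over all 932 pairs of a class and a member, 60 were higher and 46 lower in TBI, and 456 had a ratio above 1. Ratios above 1 were not counted over all genes. Of the 60 higher pairs, 38 came from stem-like astroglia, and over all 32697 pairs of a class and a gene 4.24% were higher and 5.14% lower. The members' median log2 difference was 0.36 in stem-like astroglia, where that of all genes was 0.07, 0.19 in microglia (0.01), 0.14 in astrocytes (0.02), -0.08 in RG-like progenitors (-0.00) and -0.06 in early neuroblasts (-0.01).

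The same few genes recurred at the ends of the class rankings. Rpl35 was among the 3 lowest TBI over Control ratios in 6 classes, Rps28 and Rps29 in 5 each and Rpl27 in 4. Rps28, of the small subunit, had 820.2 CPM in Control and 611 in TBI in cycling progenitors, a ratio of 0.745 (0.702–0.789). Rpl35, of the large subunit, had 945 and 705 in early neuroblasts, a ratio of 0.746 (0.702–0.793). Rps27 had 1168 and 868 there, a ratio of 0.743 (0.703–0.786), and in microglia 1807 and 1507. Rps29 had 1973 and 1564 in cycling progenitors, a ratio of 0.792. In each of these cases the counting interval lay below 1.

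At the upper end, Rpl3 was among the 3 highest ratios in 4 classes and Rpl12 and Rpl8 in 3 each. Rplp0 had 628 CPM in Control and 1041 in TBI in stem-like astroglia, a ratio of 1.66 (1.39–1.98), the largest of the ranked members. Rps9 had 2209 and 2976 in microglia, a ratio of 1.35 (1.21–1.51). Rpl18 had 253 and 339 in astrocytes, a ratio of 1.34 (1.197–1.49). Rpl13 had 2455 and 2759 in late neuroblasts, a ratio of 1.12 (1.10–1.15). These genes encode core proteins of either subunit, with no shared role beyond the ribosome.

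Several of the genes lowest in TBI code for short proteins, and the ratios were therefore set against the length of each coding sequence, a comparison chosen after the ratios were seen. Coding lengths ran from 75 bases for Rpl41, the smallest ribosomal protein, to 1257, with a median of 454.5. In all 12 classes with enough members the Spearman correlation between coding length and log2 TBI over Control was positive over the 65 to 80 members tested, from 0.26 in Reln-expressing neurons to 0.70 in early neuroblasts, with a median of 0.55. Over all other genes it ran from -0.30 to 0.24, with a median of -0.02. Over members, the correlation with transcript length was also positive but lower than that with coding length in all 12 classes. It ran from 0.158 in smooth muscle and fibroblast-like cells to 0.44 in oligodendrocytes. Transcript length was that of the longest annotated form with the coding sequence used, such as 5179 bases for Rps15a. The form captured was not measured, so the lower correlation is not read as a difference between coding and transcript length. Members are not independent of each other and share both libraries in every class, so these values are a description.

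The 10 members of 300 coding bases or less were Rpl41, Rpl39, Rps29, Rps28, Rpl38, Rps21, Rps27, Rps27l, Rpl37a and Rpl37. Their median log2 difference was -0.23 in cycling progenitors, -0.30 in RG-like progenitors, -0.29 in early and -0.23 in late neuroblasts, whereas the 70 longer members had medians of 0.01, -0.05, -0.06 and 0.03. The shift between short and long members was of a similar size in stem-like astroglia, at 0.12 and 0.37, and in microglia, at -0.10 and 0.22, where the long members were higher. Of 114 pairs of a class and a short member 101 (88.6%) were lower in TBI, and of 818 pairs with a longer member 375 (45.8%). Pairs of a class and another short gene were not counted. Other genes of 300 coding bases or less had a median of -0.06 in cycling progenitors (167 genes) and -0.08 in early neuroblasts (154 genes). It was -0.11 in RG-like progenitors and in pericytes, -0.12 in microglia (6 genes) and -0.31 in smooth muscle and fibroblast-like cells (41 genes). The short members there were at -0.30, -0.25, -0.10 and -0.35. In the last 2 of these classes other short genes thus lay as low or nearly as low as the short members. In stem-like astroglia other short genes were at 0.12 (15 genes), as were the short members. In astrocytes they were at 0.09 (123 genes), where the short members were at -0.06. In Reln-expressing neurons, late neuroblasts, oligodendrocytes and endothelial cells they were at -0.02, -0.05, -0.04 and -0.04. The short members of those classes were at -0.25, -0.23, -0.27 and -0.19.

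**Figure D5:**
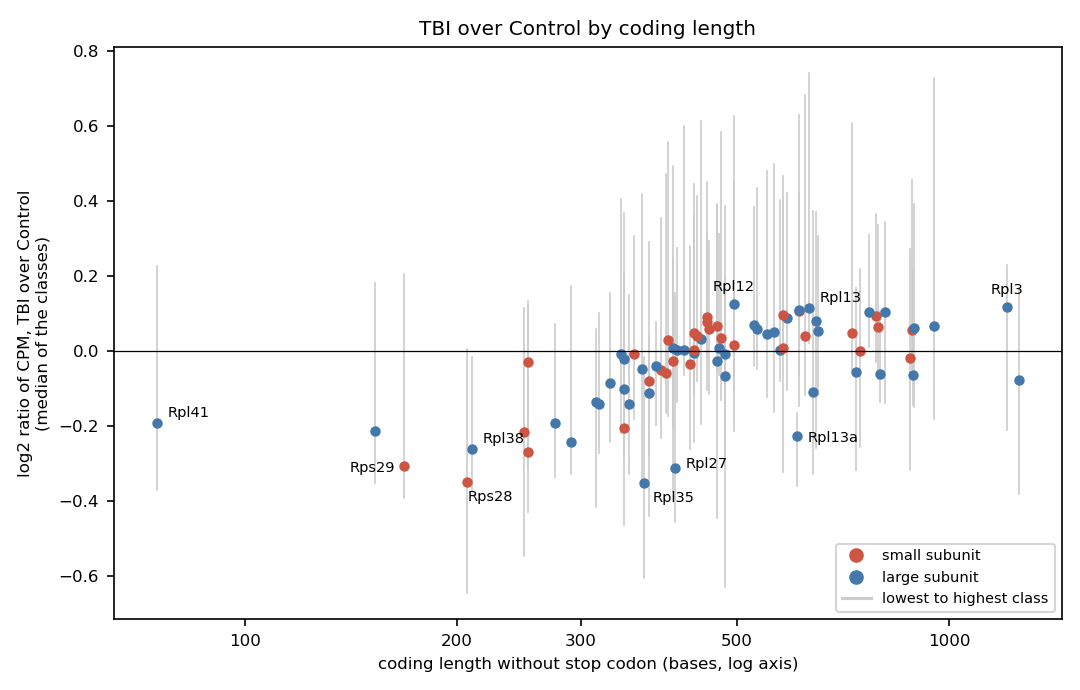
Log2 ratio of TBI over Control CPM (y axis) against coding length in bases (x axis, log scale), each point a member's median over classes, coloured by subunit, and each grey line its lowest to highest class. All 10 members of 300 bases or less have medians below 0, from -0.35 for Rps28 to -0.03 for Rps27l.

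By gene, 78 members were measured in at least 8 classes. Of them, 13 were lower in TBI in all of their classes but 1 at most, and 6 were higher in all but 1 at most. The same counts were not made over all genes, so these are a description. Rpl38 was lower in 11 of 11 classes, with a median log2 of -0.26, and Rps29 in 11 of 12, with -0.31. Rps28 was lower in 10 of 11 (-0.35), Rps27 in 11 of 12 (-0.27) and Rpl37 in 11 of 12 (-0.24). Rps27l, as short as Rps27 at 252 bases, was lower in 5 of 8 classes only, with a median of -0.03. Length therefore did not order every member: Rpl35, at 369 bases, was lower in 11 of 11 classes (-0.35) and Rpl27, at 408, in 7 of 8 (-0.31).

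Rpl13 was higher in TBI in 13 of 13 classes, with a median log2 of 0.11, Rpl8 in 12 of 12 (0.10) and Rpl3, at 1209 bases, in 11 of 12 (0.12). The sizes were small, and the same sign across classes came from a single pair of libraries that all classes share. Library, depth and condition cannot be told apart in them.

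The elongation and tract-bearing list was compared between conditions at the same limit. Of these genes, 0 of 17 were higher and 0 of 17 lower in TBI in cycling progenitors, RG-like progenitors, early and late neuroblasts, oligodendrocytes and endothelial cells, where the shares of all genes given above come to under 1 gene of 17 in each direction. Elsewhere 2 of 2 were higher in immature granule neuron-like cells, 1 of 3 in stem-like astroglia (median log2 0.31), 1 of 6 in microglia (0.27), 1 of 13 in pericytes and 2 of 16 in astrocytes, where 1 was lower. In Reln-expressing neurons 3 of 9 were lower, and in smooth muscle and fibroblast-like cells 0 of 9 were higher or lower. Immediate early genes, which respond to activity and to dissociation, were lower in TBI for 5 of 7 tested in cycling progenitors and 5 of 6 in RG-like progenitors, and higher for 10 of 10 in pericytes. In pericytes 0 of 78 members were higher and 7 lower. The part of this response in the members' values was not tested.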

How the data were processed

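Single-cell libraries of pooled, sorted dentate gyrus cells were analysed, 1 for Control and 1 for TBI. The deposited matrices hold UMI counts that the authors made with Cell Ranger 3.0.2 on GRCm38 (mm10), per the labels and the study's methods. Each table was assigned to its condition by the barcodes listed by the study: of 356 barcodes listed for Control, all 356 were found in its matrix and 0 in the other, and of 320 listed for TBI, all 320 and 0.

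Cells with at least 200 genes and with log UMIs no further from the median than 3 scaled median absolute deviations were kept. Seurat 5.3.0 (R 4.3.3) integrated the libraries (CCA, 20 dimensions, 2000 variable genes, 20 components, resolution 3.0) without the 83 ribosomal protein symbols and Malat1. Clusters were named from marker lists when at least 3 markers were found in 10% of cells. A cluster stayed unnamed where its 10 leading genes held more markers of another class than of its own. It also stayed unnamed where its UMI count was under 0.333 of the library median and no marker of its class was among those genes. Scrublet (scanpy 1.11.5) marked doublets, which were kept. UMIs were summed per class and library, and CPM is a gene's part of that sum scaled to a fixed total. Classes of 30 or more cells in both libraries were compared over genes of 100 or more UMIs in both sums. Ratios of 2 counts have exact conditional binomial intervals and shares have Clopper-Pearson intervals, in Python 3.11.15 with numpy 2.4.6 and scipy 1.17.1. Figures used matplotlib 3.10.9. The measuring steps were tested on simulated data.

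Genes named are the 6 members with the most UMIs, the 10 with the widest class range of share (at least 1000 UMIs, same direction in both libraries), paralog pairs, the stalk genes, the 3 highest and 3 lowest TBI over Control ratios per class (at least 200 UMIs in both sums), members at the 100 UMI limit, and up to 4 examples per list. Some genes that this rule takes are not reported here. Genes named for coding length were chosen after their values were seen. Coding and transcript lengths are from the principal transcripts of GENCODE vM21, taking for each gene the longest coding sequence and then the longest transcript. Members, lists and tests were chosen with earlier results of these data known. Alternatives covered filters, doublets, depth, denominators, weighting, clustering, folds and count limits, and those on Malat1, low-UMI clusters and length were chosen after seeing the data.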

Additional observations from a re-analysis of the deposited data

Results flagged for a closer look

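With 1 library for each condition, the summed share of the 80 ribosomal protein genes in TBI over Control moved in opposite directions between cell classes, beyond counting error alone, and the difference between classes was not tested. The ratio lay above 1 in immature granule neuron-like cells (1.54), stem-like astroglia (1.26), microglia (1.13), astrocytes (1.09) and late neuroblasts (1.00445). It lay below 1 in Reln-expressing neurons (0.985), oligodendrocytes (0.977), early neuroblasts (0.947), RG-like progenitors (0.946), pericytes (0.943) and smooth muscle and fibroblast-like cells (0.938). Counting error leaves out the spread between cells. Late neuroblasts, Reln-expressing neurons, oligodendrocytes, microglia, pericytes and astrocytes changed sides in at least 1 of the other settings given below.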

How the results depend on the processing

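No paired analysis was possible because the animals that the labels number were pooled before sequencing and no cell can be assigned to an animal. The settings on low-UMI clusters and on Malat1 were chosen after seeing the data. Direction was kept in all settings for the share in cycling progenitors over astrocytes and in immature granule neurons over early neuroblasts. The first ratio, 4.99 in Control and 4.56 in TBI, was 5.07 and 4.62 without the limit on depth, 4.74 and 4.71 under 10% mitochondrial UMIs, 5.25 and 4.99 at 2000 or more UMIs, 4.47 and 4.08 without Malat1 in the total, and 4.24 and 3.90 without Malat1 and mitochondrial genes. It was 4.79 and 4.16 as a mean over cells, 5.11 and 4.74 with member genes in clustering, 5.20 and 4.77 without integration, 6.09 and 6.27 without low-UMI clusters, 7.29 and 6.53 at 1% or more Malat1, 5.05 in Control at resolution 1.5, and 4.70 in TBI without doublets.

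The second ratio, 0.253 and 0.410, was 0.492 and 0.494 without the limit on depth, 0.1997 and 0.689 under 10% mitochondrial UMIs, 0.305 and 0.583 at 2000 or more UMIs, 0.266 and 0.441 without Malat1, 0.348 and 0.542 without Malat1 and mitochondrial genes, 0.231 and 0.313 as a mean over cells, 0.0960 and 0.186 with member genes in clustering, and 0.317 and 0.384 without integration. In Control it was 0.300 without doublets and 0.208 at 1% or more Malat1. Members more than 2-fold lower there, 6 in Control and 46 in TBI, were 2 without doublets, 12 without integration and 78 at 10 UMIs in Control, and 18 without the limit on depth, 0 under 10% mitochondrial UMIs, 3 at 2000 or more UMIs and 20 without Malat1 and mitochondrial genes in TBI. At resolution 1.5 and without low-UMI clusters no such class was left and no value could be had. No class of RG-like progenitors was left at resolution 1.5 either.

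Classes with a higher share in TBI, 5, were 3 under 10% mitochondrial UMIs, 3 at resolution 1.5 and 2 without low-UMI clusters. Members higher in TBI, 60, were 34 under 10% mitochondrial UMIs, 39 at 2000 or more UMIs, 124 at 10 UMIs, 10 at a fold of 1.5 and 39 without low-UMI clusters, and members lower, 46, were 3 at a fold of 1.5. Of the 11 classes whose interval lay off 1, the ratio changed sides as a mean over cells in late neuroblasts (0.994), Reln-expressing neurons (1.05), oligodendrocytes (1.01) and microglia (0.979), with member genes in clustering in late neuroblasts (0.999) and Reln-expressing neurons (1.001), in pericytes without integration (1.03), in late neuroblasts at resolution 1.5 (0.998) and in astrocytes without low-UMI clusters (0.969). The other 2, cycling progenitors and endothelial cells, reached 1.002 without doublets and 1.001 at 1% or more Malat1. Short members lower in TBI were 84 of 96 pairs at 2000 or more UMIs and 89 of 98 under 10% mitochondrial UMIs. Precision is limited by 1 library a condition, by classes of 32 to 60 cells and by the fewer UMIs of TBI cells.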
